A study of Homo sapiens with 48 samples.

Results

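The HOX cluster genes are the 39 homeobox genes of the HOXA, HOXB, HOXC and HOXD clusters. They were taken by name from the 19923 protein-coding gene names of the count tables, as HOX followed by a cluster letter and a paralog number. There are 11 HOXA genes on chromosome 7, 10 HOXB genes on chromosome 17, 9 HOXC genes on chromosome 12 and 9 HOXD genes on chromosome 2. The libraries, of poly(A) RNA, came from Kelly and NGP, established human neuroblastoma lines labelled as wild type and MYCN-amplified. Each line had been kept for 3 or 6 days in 8 µM STM2457, an inhibitor of METTL3, the enzyme that writes N6-methyladenosine (m6A) on mRNA, or in its solvent DMSO. Actinomycin D, an inhibitor of transcription, followed for 0, 3 or 6 h at a dose of 10 µg/ml. In all, 48 libraries made 24 groups of 2, and the labels do not say whether the 2 came from separate cultures, so p-values measure the spread between these samples, which may be technical.

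HOX proteins are homeodomain transcription factors that give cells along the head-to-tail axis of the embryo their regional identity. Genes of one paralog number resemble each other across clusters, and within a cluster the genes with low numbers are switched on earlier and further forward than those with high numbers. Neuroblastoma arises from the sympathetic branch of the neural crest, and such cells are known to keep HOX expression. HOX proteins bind DNA together with PBX and MEIS partners, and Polycomb and Trithorax complexes keep the clusters silent or open.

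The libraries held 13807701 to 19774227 fragments in genes in Kelly and 11139550 to 21942238 in NGP. Below, CPM is the fragment count per 1000000 fragments of the TMM-scaled library (trimmed mean of M-values, a scaling under which the typical gene does not change). Levels are compared between genes only as CPM per kilobase of the gene's exons. Of 9 adrenergic neuroblastoma markers such as HAND2, 9 in Kelly and 8 in NGP had at least 1 CPM in each of the 4 DMSO libraries before actinomycin D. Of 8 mesenchymal markers 5 reached that level in Kelly and 6 in NGP, with 129.7 to 280.5 and 368 to 474 CPM in sum against 8101 to 8897 and 2864 to 3545 CPM for the adrenergic list. Of 3 blood cell and 3 epithelial markers 0 reached it in either line.

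Sequences are shown first for the pair of members that stand for the main contrasts below. HOXA7 was near 0 in Kelly and high in NGP, and HOXD13 was expressed in both lines and fell after actinomycin D in all 4 DMSO comparisons. Their promoters, 250 bases before to 50 after the start in RefSeq on GRCh38.p14, are at chr7:27156626-27156925 on the minus strand for HOXA7 and at chr2:176092471-176092770 on the plus strand for HOXD13. They are written with each CG dinucleotide, the site of DNA methylation, in capitals.
HOXA7: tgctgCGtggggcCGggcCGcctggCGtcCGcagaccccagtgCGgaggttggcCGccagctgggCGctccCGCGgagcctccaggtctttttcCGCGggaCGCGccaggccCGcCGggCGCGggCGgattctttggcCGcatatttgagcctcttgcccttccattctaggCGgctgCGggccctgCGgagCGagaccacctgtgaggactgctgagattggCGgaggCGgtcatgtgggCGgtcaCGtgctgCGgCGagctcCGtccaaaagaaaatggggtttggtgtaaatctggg
HOXD13: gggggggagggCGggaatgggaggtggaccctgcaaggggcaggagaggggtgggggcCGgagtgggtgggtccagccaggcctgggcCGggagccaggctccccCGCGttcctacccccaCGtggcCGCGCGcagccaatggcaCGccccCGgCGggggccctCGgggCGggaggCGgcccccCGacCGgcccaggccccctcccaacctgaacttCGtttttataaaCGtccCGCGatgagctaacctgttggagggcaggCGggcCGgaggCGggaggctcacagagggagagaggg
The HOXA7 window holds 31 CG and the HOXD13 window 24, against a median of 14 over 35116 RefSeq promoters of the same length, of which 96.0% hold at least 1. Of the 39 members, 20 were matched to a promoter in that table. Both windows are above that median, the one of the gene that differed between the lines and the one of the gene expressed in both.

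A member was called expressed in a line where it had at least 1 CPM in each of the 4 DMSO libraries before actinomycin D. By that rule Kelly expressed 12 of the 39 members and NGP 17. Of these, 11 were shared by both lines: HOXC4, HOXC5, HOXC6, HOXC8, HOXC9, HOXD3, HOXD4, HOXD8, HOXD9, HOXD10 and HOXD13. Kelly added HOXD1, and NGP added HOXA5, HOXA6, HOXA7, HOXA10, HOXA11 and HOXD11. A further 26 members in Kelly and 16 in NGP had fragments in some library of the line without reaching the rule, and 1 and 6 had none in 24 libraries. HOXB was off by this rule in both lines, with 0 of 10 expressed.

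The 5 expressed HOXC members were the block of low and middle paralog numbers, and HOXC10 to HOXC13 did not reach the rule in either line. In HOXD the members from HOXD3 to HOXD10 were expressed in both lines, and so was HOXD13, the last gene of the cluster. Between them HOXD12 missed the rule in NGP, and HOXD11 and HOXD12 missed it in Kelly. HOXD12 had a mean of 0.293 ± 0.543 CPM in Kelly and 1.79 ± 0.937 in NGP (SD, n = 4 libraries each). In NGP it had 0.390 and 2.21 CPM at 3 days and 2.32 and 2.26 at 6 days, and the first library kept it under the rule. HOXD11 in Kelly had 0.785 and 0 CPM at 3 days and 2.33 and 1.56 at 6 days. In the HOXA cluster of NGP the gap in these DMSO libraries fell at HOXA9, with 0.632 ± 0.430 CPM, between HOXA7 and HOXA10. Members just under the rule in NGP were HOXA13, whose lowest DMSO library had 0.956 CPM, and HOXA3, whose lowest had 0.937. Members just inside were HOXA5 in NGP, with 1.10 to 3.90 CPM, and HOXC5 in Kelly, with 1.35 to 3.06.

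In Kelly, HOXC4, a member of the fourth paralog group that patterns the neck region, had 65.4 and 43.9 CPM in the 2 DMSO libraries of 3 days and 52.9 and 46.8 in those of 6 days. HOXD13, the factor of digit and distal limb formation, had 19.9 and 27.8 CPM at 3 days and 21.0 and 23.8 at 6 days. HOXC9, which in neuroblastoma is known from retinoic acid-induced differentiation, had 22.1 and 12.1 CPM at 3 days and 13.2 and 12.7 at 6 days. The first 3-day library was the high one for HOXC4 and HOXC9 and the low one for HOXD13. HOXD3 had 21.4 and 27.7 CPM at 3 days and 22.3 and 22.6 at 6 days. HOXD9, a lumbar-level gene, had 9.84, 13.3, 13.6 and 12.3 CPM in the same order. HOXC8, which patterns the lower neck and thorax and their motor neurons, had 11, 16.8, 11.2 and 15.7 CPM. None of these 3 separated the durations. HOXD8 had 15.8, 10.7, 13.4 and 15.5 CPM, HOXC6 had 10.4, 16.6, 17.4 and 11.6, and HOXD10 had 3.62, 2.42, 6.58 and 7.93. HOXD4 had 2.23 to 4.36 CPM, HOXD1 1.73 to 4.23 and HOXC5 1.35 to 3.06.

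Per kilobase, HOXC4 led in Kelly with 18.9 ± 3.45 CPM (SD, n = 4), and its lowest library lay above the highest of HOXD13. HOXD13 followed with 9.57 ± 1.45, HOXC9 with 9.01 ± 2.85, HOXD3 with 6.63 ± 0.802, HOXD9 with 6.55 ± 0.908 and HOXC8 with 5.66 ± 1.26. HOXD8 had 5.27, HOXC6 4.05, HOXD4 2.76, HOXD10 1.91, HOXD1 1.57 and HOXC5 1.26 CPM per kilobase. From HOXD13 downwards every pair of neighbours in this order overlapped in its libraries. HOXC4 was above 88.4% of the 16670 genes with a fragment in the 4 Kelly libraries, HOXD13 above 75.7%, and HOXC5 above 36.4%.

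In NGP the leading member was HOXD10, a gene of lumbar level, with 50.1 and 48.4 CPM at 3 days and 52.9 and 56.8 at 6 days. HOXA7, a thoracic gene, had 37.6 and 33.2 CPM at 3 days and 33 and 42.5 at 6 days. HOXD13 had 30.7, 33.6, 31.2 and 25.5 CPM. All 3 varied little between libraries and durations. HOXC4 had 30.8, 32.9, 26.6 and 24.1 CPM, HOXC8 had 20.9, 16.7, 13.8 and 14.1, and HOXC9 had 19.4, 18.4, 6.86 and 11.3. All 3 of these HOXC genes were lower in both 6-day than in both 3-day DMSO libraries. The share of all genes that separated in this way was not counted, and the durations in DMSO were not tested against each other. HOXD11, which with its paralog shapes the forearm, had 13.4 and 16.8 CPM at 3 days and 18.9 and 28.2 at 6 days. HOXA11, that paralog, had 8.20, 4.41, 6.86 and 9.03 CPM, and HOXA6 had 2.58, 3.23, 2.60 and 4.51.

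Per kilobase, HOXD10 had 19.3 ± 1.36 CPM in NGP (SD, n = 4), and its lowest library was above the highest of HOXA7, at 15.2 ± 1.87. HOXD13 had 12.5 ± 1.42, HOXC4 10.3 ± 1.45, HOXD11 9.14 ± 3.01 and HOXC9 8.39 ± 3.57 CPM per kilobase. HOXD8, HOXC8, HOXD9, HOXD3 and HOXD4 lay between 7.0 and 5.05, and HOXC6, HOXA11, HOXA6, HOXC5, HOXA10 and HOXA5 between 2.82 and 1.47. Apart from HOXD10 over HOXA7, only HOXC5 over HOXA10 were neighbours whose libraries did not overlap. HOXD10 was above 87.7% of the 15714 genes with a fragment in the 4 NGP libraries and HOXA7 above 83.5%.

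The authors' counting gives 1 value per gene and the headers name no strand option. HOXD10 shares 16.8% of its exon bases with HOXD11 and HOXC4 shares 17.5% with HOXC6, and 33.9% of HOXC5 lies in the exons of a readthrough model, AC012531.3. The clusters also hold antisense transcripts. Reads from shared or antisense stretches cannot be told apart here, so the levels of these members are uncertain to that extent.

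**Figure D1:**
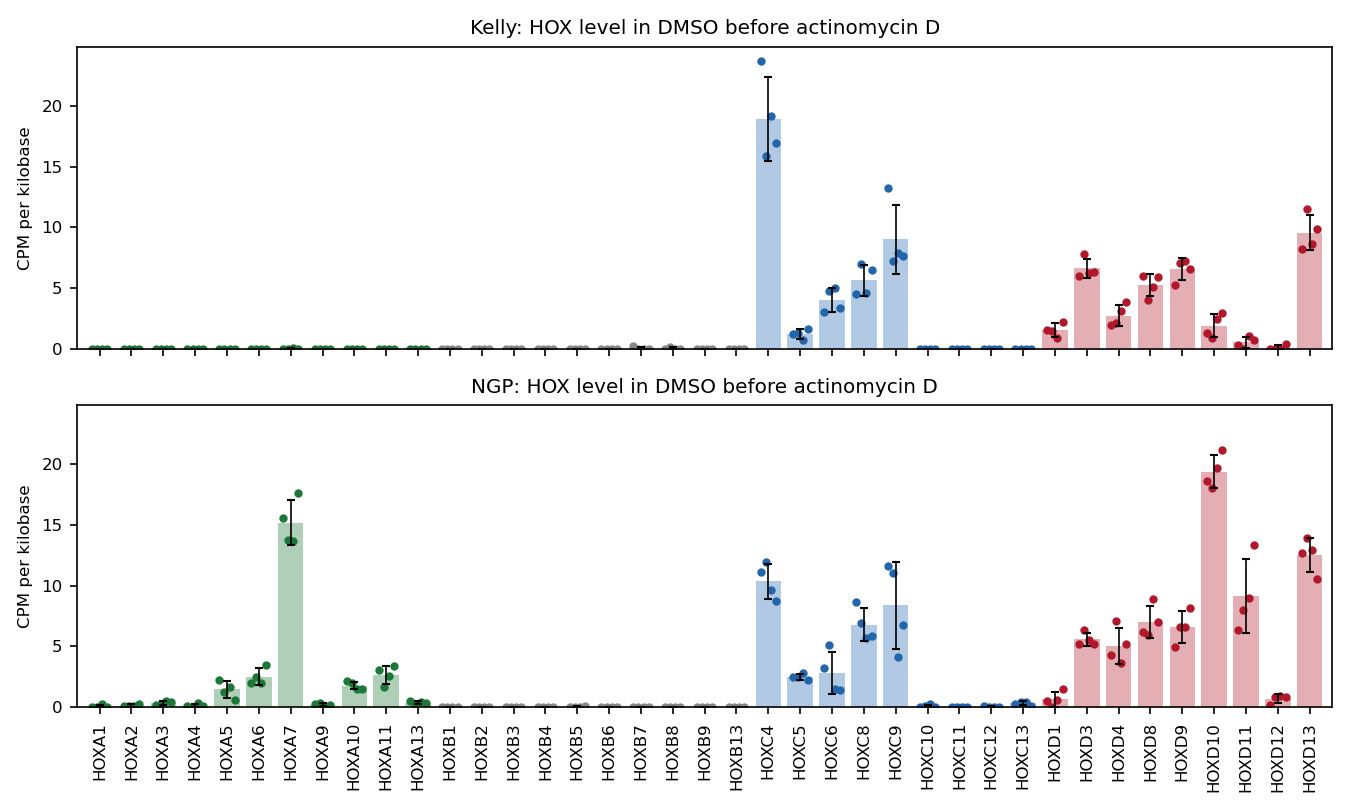
Level of the 39 HOX genes in DMSO before actinomycin D, in CPM per kilobase on a linear axis, for Kelly (top) and NGP (bottom). Points are the 4 libraries, bars their mean and error bars the SD. HOXA and HOXB are near 0 in Kelly, HOXB in NGP, and HOXC4 (Kelly, 18.9) and HOXD10 (NGP, 19.3) lead.

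Between the lines the HOXA cluster showed the widest separation. NGP was compared with Kelly in DMSO before actinomycin D at each duration, with edgeR's quasi-likelihood test and Benjamini-Hochberg adjustment over 17343 genes. Of 32 members tested, 10 were called at 3 days, 9 higher in NGP and 1 lower, where 30% of all genes were called, 14% as higher and 16% as lower. At 6 days 11 were called, 9 higher and 2 lower, against 31.6% of all genes (15.7% and 15.9%). The 9 higher members were the same at both durations: HOXA3, HOXA5, HOXA6, HOXA7, HOXA10, HOXA11, HOXA13, HOXD10 and HOXD11. Of the HOXC genes 1 was lower at 3 days and 2 were at 6 days.

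HOXA7 had 7 fragments over the 4 Kelly libraries and 2187 over the 4 NGP libraries, a ratio of 355 after scaling, with an adjusted p of 1.5e-18 at 3 days and 1.6e-18 at 6 days (edgeR). Kelly had no fragment of HOXA3, HOXA5, HOXA6, HOXA10, HOXA11 or HOXA13 in these libraries. Against a floor of 3 fragments over the 4 libraries, NGP was at least 163-fold higher for HOXA11, at least 148-fold for HOXA10 and at least 73.6-fold for HOXA6. The bound was 56.9-fold for HOXA5, 44.8-fold for HOXA13 and 38.7-fold for HOXA3. HOXA9, with 35 NGP fragments against 0, was at least 13.3-fold higher but was not called. The calls of HOXA3, HOXA5 and HOXA13 did not hold when either Kelly library of the comparison was left out, with log2 changes of 7.16, 8.63 and 7.91 at 3 days without the first, nor did that of HOXA13 at 3 days without the first NGP library, at 6.97.

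HOXD10 was 4.02 ± 0.33 higher in NGP on the log2 scale at 3 days (adjusted p = 6.2e-17, edgeR) and 2.92 ± 0.30 at 6 days (adjusted p = 5.9e-13). HOXD11 was 5.20 ± 0.83 higher at 3 days (adjusted p = 4.3e-07) and 3.58 ± 0.72 at 6 days (adjusted p = 3.8e-05). Each of the 4 NGP libraries was above each of the 4 Kelly libraries for both genes. HOXD13, at the end of the same cluster, did not pass the test, at 0.43 ± 0.36 and 0.34 ± 0.36. HOXC4 was lower in NGP, by a log2 change of -0.78 ± 0.23 at 3 days (adjusted p = 0.0053) and -0.98 ± 0.23 at 6 days (adjusted p = 0.00038, edgeR). The 3-day call of HOXC4 did not hold without the first Kelly library (-0.46) or the first NGP library (-0.73). Nor did it hold with scaling to the ERCC spike-ins (synthetic RNAs added to the samples), at -0.37 (adjusted p = 0.21, edgeR), where the typical gene was at 0.27. HOXC6 was at -1.52 ± 0.46 at 6 days (adjusted p = 0.0070) and 0.10 ± 0.45 at 3 days, and the 6-day call did not hold without the first Kelly library (-1.20) or the second NGP library (-1.48). The other 8 shared members, from HOXC5 to HOXD13, lay between -0.51 and 1.47 and were not called by edgeR with TMM scaling. At 3 days DESeq2 called HOXD4 (1.51, adjusted p = 0.040). With ERCC scaling edgeR called HOXD4 (1.88), HOXC8 (0.85) and HOXD13 (0.84) at 3 days. Of the 32 members DESeq2 called 12 at 3 days and 11 at 6 days, and limma-voom 11 and 14.

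Members that were off still gave stray fragments, in Kelly more of them late after actinomycin D. Of the 21 HOXA and HOXB genes, a Kelly library had a fragment in a median of 1 at 0 h, 2 at 3 h and 6 at 6 h (8 libraries each). The number of all genes with a fragment rose as well, from a median of 14602 at 0 h to 14694.5 at 3 h and 15745.5 at 6 h. In NGP no such rise was seen, and a library had a fragment in a median of 1, 0.5 and 0.5 of the 10 HOXB genes. The part of the wider detection in Kelly was not tested.

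STM2457 raised or lowered no HOX member past the threshold before actinomycin D. In each of the 4 comparisons of STM2457 with DMSO, by line and duration, edgeR called 0 of 25 members in Kelly and 0 of 26 in NGP after Benjamini-Hochberg adjustment. Of the members tested, 12 in Kelly and 17 in NGP were expressed by the rule. The others were low in DMSO at 0 h, so a change in them was hard to call at this depth. HOXA9 in NGP had 3.39 and 3.00 CPM in STM2457 at 3 days against 0.937 and 1.03 in DMSO. At 6 days it had 1.74 and 2.83 against 0.111 and 0.451 CPM. Others went the other way, such as HOXD1 in NGP at 6 days, with 0.752 and 0.263 against 1.16 and 2.84 CPM. How many of them had groups apart was not counted. Of all genes, Kelly had 1.68% called at 3 days and 3.97% at 6 days, and NGP had 3.7% and 7.99%. At an unadjusted p under 0.05 the members numbered 0, 2, 2 and 4 in that order. DESeq2 called 0, 0, 0 and 2, and limma-voom 0, 1, 0 and 1.

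The estimates lay mostly above 0. Among expressed members 10 of 12 were positive in Kelly at 3 days and 11 of 12 at 6 days, with medians of 0.44 and 0.54 on the log2 scale. In NGP 14 of 17 were positive at 3 days and 12 of 17 at 6 days, with medians of 0.10 and 0.28. The median over all genes tested was 0.00 in the first 3 comparisons and 0.02 in the fourth. With scaling to the ERCC spike-ins the counts were 12 and 8 of 12 in Kelly and 15 and 12 of 17 in NGP. The median over all genes tested was then 0.38 and -0.21 in Kelly and 0.10 and -0.02 in NGP. Both STM2457 libraries were above both DMSO libraries for 6 of the 12 members in Kelly at 3 days, where 25% of the 11841 genes expressed by the same rule showed this. The counts were 7 of 12 in Kelly at 6 days (27.3% of genes), 8 of 17 in NGP at 3 days (24.7% of 11709 genes) and 7 of 17 in NGP at 6 days (27.1%). No expressed member had both STM2457 libraries below both DMSO libraries in any of the 4, against 22.6% and 21.9% of genes in Kelly and 24.9% and 24.3% in NGP. The members share their clusters and the 2 DMSO libraries of each comparison, so these counts are a description.

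HOXD13 had non-overlapping groups in all 4 comparisons. In Kelly its STM2457 libraries had 30.1 and 39.1 CPM at 3 days against 19.9 and 27.8 in DMSO, and 37.1 and 36.0 at 6 days against 21.0 and 23.8. In NGP they had 43.4 and 38.2 CPM at 3 days against 30.7 and 33.6 in DMSO. At 6 days they had 31.24 and 46.8 CPM against 31.22 and 25.5, so that the nearest libraries were almost level. The log2 changes were 0.53 ± 0.34, 0.73 ± 0.34, 0.34 ± 0.32 and 0.46 ± 0.32, with adjusted p of 0.33 (edgeR) at the smallest, in Kelly at 6 days. In that comparison limma-voom called HOXD13, at 0.75 (adjusted p = 0.034), and with ERCC scaling edgeR called it in Kelly at 3 days, at 0.93 (adjusted p = 0.021). With that scaling the typical gene in Kelly at 3 days was itself at 0.38, and 3694 of 16759 genes were called as higher.

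Among HOXC genes, HOXC5 had the largest estimate, in Kelly at 3 days, with 5.08 and 7.13 CPM in STM2457 against 2.23 and 2.42 in DMSO, a log2 change of 1.38 ± 1.06 (adjusted p = 0.83, edgeR). In NGP at 6 days HOXC9 had 20.8 and 17.0 CPM in STM2457 against 6.86 and 11.3 in DMSO, a log2 change of 1.06 ± 0.43 (adjusted p = 0.13, edgeR). HOXC6, a gene of the lower neck and upper thorax, had 7.93 and 13.1 CPM against 5.20 and 4.90, a change of 1.06 ± 0.39 (adjusted p = 0.091). HOXC8 had 20.8 and 24.2 CPM against 13.8 and 14.1, a change of 0.69 ± 0.28 (adjusted p = 0.13). For HOXC9, HOXC6 and HOXC8 in NGP at 6 days the groups did not overlap, and the DMSO libraries were below those of 3 days, where HOXC6 had 11.2 and 17.6 CPM. DESeq2 called HOXC6 and HOXC8 in this comparison, limma-voom called HOXC9, and so did edgeR without the second DMSO library, at 1.47. In Kelly at 6 days HOXC8 had 24.2 and 21.3 CPM in STM2457 against 11.2 and 15.7 in DMSO, a change of 0.78 ± 0.36 (adjusted p = 0.33). HOXC4, the best counted member of Kelly, was at -0.07 ± 0.22 and -0.01 ± 0.22 in Kelly and 0.06 ± 0.23 and 0.40 ± 0.23 in NGP.

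HOXA7 in NGP had 50.8 and 45.4 CPM in STM2457 at 3 days against 37.6 and 33.2 in DMSO, a log2 change of 0.44 ± 0.17 (adjusted p = 0.18, edgeR). At 6 days its libraries overlapped, with 44.3 and 37.1 against 33 and 42.5 CPM, a change of 0.11 ± 0.17. HOXD9 in NGP at 3 days had 20.2 and 14.5 CPM against 9.29 and 12.3, a change of 0.67 ± 0.33 (adjusted p = 0.36). HOXD10 in NGP was at 0.07 ± 0.16 at 3 days and 0.28 ± 0.16 at 6 days, and HOXD11 at -0.13 ± 0.35 and -0.59 ± 0.34. For weakly counted members such as HOXD1 in Kelly (-0.26 ± 1.15 at 3 days) and HOXA5 in NGP (0.11 ± 1.06) a change was not measurable at this depth.

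The difference between the 6-day and the 3-day effect of STM2457 was called for 0 of 25 members in Kelly (12 of them expressed) and 0 of 26 in NGP (17 expressed). Of all genes edgeR called 0.788% and 2.8%. No member had an unadjusted p under 0.05 there, and DESeq2 and limma-voom called none either. The difference in the STM2457 effect between the lines was called for 0 of 32 members at 3 days (0.161% of genes) and 0 of 32 at 6 days (1.75%). Of these 32, 11 were expressed in both lines. At an unadjusted p under 0.05 there were 1 and 2 members, HOXD10 at 3 days and HOXA7 and HOXC13 at 6 days, and DESeq2 and limma-voom called 0.

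**Figure D2:**
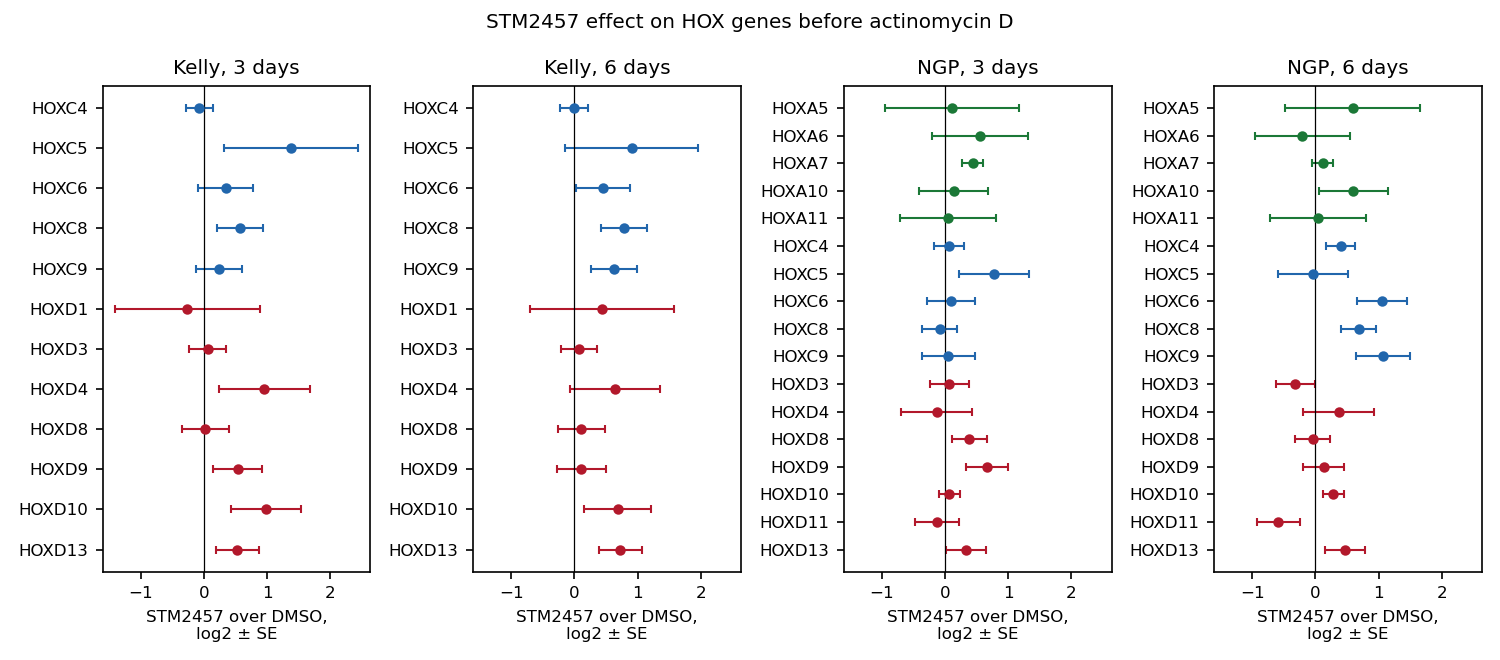
STM2457 effect on the expressed HOX genes before actinomycin D, in 4 panels by line and duration. The x axis is the log2 change of STM2457 over DMSO with its SE, and the colours mark HOXA (green), HOXC (blue) and HOXD (red). Most points lie to the right of 0, and none passed the adjusted threshold.

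Actinomycin D stops new transcription, so what is left of a transcript after some hours depends on how fast it decays. Because the scaling holds the typical gene level, a negative value below means faster loss than the typical gene. Transcripts with the motif TATTTAT in the 3′ UTR, a core of AU-rich elements, are known as a class of short-lived mRNAs. The motif is written in capitals within 29 bases, on GRCh38 in GENCODE canonical transcripts, for a member called as lower in every DMSO comparison below and for 2 that were called as lower in none of them.
HOXD13, chr2:176095796-176095824, plus strand: aaagtgctgcaTATTTATacaattgagag
HOXC8, chr12:54011750-54011778, plus strand: tgcttctctggTATTTATtttagagggga
HOXA7, chr7:27154252-27154280, minus strand: gaaaaataataTATTTATtccaaaaagca
Searched on the transcript strand alone, the 3′ UTR holds 1 such match in each of these 3 and in HOXA5 and HOXC5, 2 in HOXC4 and HOXD8, 3 in HOXC6 and HOXD3, and 0 in the other 9 members expressed in a line, among them HOXC9, HOXD9 and HOXD10. Over the last 500 bases of the 3′ UTR, 16.9% of 13342 transcripts hold at least 1, and of these 3 members HOXD13 alone does. The match is a description and was found both in members that fell and in members that did not.

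In DMSO the fall after 6 h of actinomycin D was called for 7 of 25 members in Kelly at 3 days, where 30.1% of all genes were called in either direction and 15.6% as lower. It was called for 5 of 25 in Kelly at 6 days (26.5% of genes, 13.3% as lower). In NGP at 3 days 5 of 26 were called, 4 lower and 1 higher (37.4% of genes, 18.4% as lower), and at 6 days 7 of 26, all lower (36.7%, 18.7% as lower). The members called as lower were thus 28%, 20%, 15.4% and 26.9% of those tested. All calls were in expressed members, 7 and 5 of 12 in Kelly, and 5 (4 lower) and 7 of 17 in NGP. The shares of all genes above go with the 25 and 26 members tested. The share among all genes expressed by the rule was not counted. Members that were not expressed could hardly be called as lower. Among expressed members the median log2 change was -1.44 and -0.98 in Kelly and -0.50 and -0.77 in NGP, against 0.00, 0.05, -0.01 and -0.05 over all genes. The rule for expressed members asks for a level at 0 h, the baseline of this change, and the genes tested did not have to meet it. These medians are thus of unlike sets, and the median over all genes expressed by the rule was not computed.

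HOXD13 was called as lower in every one of these comparisons. In Kelly at 3 days it went from 19.9 and 27.8 CPM at 0 h to 9.99 and 7.80 at 3 h and 2.66 and 1.98 at 6 h, a log2 change of -3.35 ± 0.39 (adjusted p = 7.1e-14, edgeR). At 6 days in Kelly it went from 21.0 and 23.8 to 8.22 and 8.14 and then 3.33 and 3.01 CPM, a change of -2.82 ± 0.38 (adjusted p = 5.2e-11). In NGP at 3 days it went from 30.7 and 33.6 to 9.10 and 8.07 and then 2.63 and 3.69 CPM, a change of -3.36 ± 0.37 (adjusted p = 2.6e-12). The hours did not overlap in any of these 3 courses. In NGP at 6 days the 6 h libraries stood apart from each other, at 2.92 and 11.6 CPM, and the change was -2.03 ± 0.34 (adjusted p = 7.8e-07).

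HOXC4 fell more slowly but also in all 4. In Kelly it went from 65.4 and 43.9 CPM to 25.0 and 30.3 and then 19.5 and 21.4 at 3 days, a log2 change of -1.41 ± 0.22 (adjusted p = 3.0e-08, edgeR). At 6 days the change was -1.30 ± 0.22 (adjusted p = 3.8e-07), from 52.9 and 46.8 CPM to 23.6 and 17.2. In NGP it was -1.02 ± 0.24 at 3 days (adjusted p = 0.00029) and -0.96 ± 0.24 at 6 days (adjusted p = 0.00062). The calls of HOXC4 and HOXD13 in DMSO held without any single library of the comparison.

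HOXC9 fell in 3 of the 4. In Kelly it went from 22.1 and 12.1 CPM at 0 h to 4.90 and 6.68 at 6 h at 3 days (-1.55 ± 0.38), and from 13.2 and 12.7 to 2.67 and 7.22 at 6 days (-1.39 ± 0.38). In NGP at 3 days it went from 19.4 and 18.4 to 5.97 and 3.61 CPM (-1.97 ± 0.45, adjusted p = 0.00020, edgeR). In NGP at 6 days the 6 h libraries disagreed widely, with 8.67 CPM from 172 fragments and 0.226 CPM from 3 fragments, and the change of -1.01 ± 0.44 was not called (adjusted p = 0.067). It was called by limma-voom (-2.15), without a filter on low counts (-0.99), with library size only (-1.20) and with ERCC scaling (-2.05), and not by DESeq2 (-1.03). Leaving out single libraries moved it between -5.31 and -0.11. The Kelly calls of HOXC9 did not hold without the first 0 h library at 3 days (-1.06) or the first 6 h library at 6 days (-0.85). HOXC6 fell in Kelly, by a log2 change of -2.05 ± 0.47 at 3 days (adjusted p = 0.00013) and -1.62 ± 0.45 at 6 days (adjusted p = 0.0026), the latter not without the first 0 h (-1.29) or the second 6 h library (-1.07). In NGP HOXC6 was at -0.45 ± 0.38 and -0.77 ± 0.41 and was not called. Whether it differed between the lines was not tested.

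Of the HOXD genes in Kelly, HOXD8 was called at 3 days (-1.47 ± 0.39), HOXD3 at 3 days (-0.86 ± 0.29) and HOXD9 at both durations (-1.11 ± 0.40 and -1.20 ± 0.40). At 3 days HOXD8 was not called without the first 0 h library (-1.16), nor HOXD3 without the second 0 h (-0.66) or the first (-0.89) or second (-0.82) 6 h library. HOXD9 was not called at 3 days without the second 0 h (-0.88) or the second 6 h library (-0.95), nor by limma-voom (-1.09, adjusted p = 0.089). At 6 days it was not called without the first 0 h (-1.11) or the second 6 h library (-1.04). HOXD3 at 6 days was called by DESeq2 (-0.68, adjusted p = 0.015) and by edgeR with library size only (-0.89), but not with TMM scaling. In NGP at 6 days HOXD8 fell from 23.4 and 18.4 CPM to 8.72 and 5.81, a log2 change of -1.55 ± 0.29 (adjusted p = 8.6e-06, edgeR). HOXD4, a gene of the hindbrain and neck known to respond to retinoic acid, went from 4.10 and 5.93 CPM to 0.353 and 0.377 there (-3.79 ± 0.69, adjusted p = 3.7e-06), while its 3 h libraries still had 5.68 and 5.29. The low HOXD4 values rest on 7 and 5 fragments, and at 3 days the same gene was at -0.74 ± 0.57. HOXD11 fell in NGP at both durations (-0.98 ± 0.36 and -1.23 ± 0.35). At 3 days it was not called without the second 0 h (-0.81) or the second 6 h library (-0.61), nor by limma-voom (-0.99, adjusted p = 0.056). At 6 days it was not called without the second 0 h library (-0.91). HOXD9 in NGP at 6 days (-1.02 ± 0.34) was not called without the second 0 h (-0.85) or the second 6 h library (-0.93).

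HOXA11 in NGP was low at 3 h already. At 6 days it went from 6.86 and 9.03 CPM to 0.105 and 1.37 at 3 h and 0.605 and 0.755 at 6 h, a 6 h log2 change of -3.58 ± 0.87 (adjusted p = 0.00051, edgeR). At 3 days it went from 8.20 and 4.41 to 0.883 and 0.357 at 3 h and then 2.46 and 3.15 CPM at 6 h. There the 3 h change was called (-3.33 ± 0.87, adjusted p = 0.0021, edgeR), as for 11.3% of all genes called as lower, and the 6 h change was not (-1.18 ± 0.78).

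HOXA7, HOXD10 and HOXC8 were not called as lower by edgeR with TMM scaling in any DMSO comparison. HOXA7 in NGP went from 37.6 and 33.2 CPM at 0 h to 44.2 and 46.6 at 3 h and 44.9 and 56.6 at 6 h in the 3-day libraries. That rise of 0.51 ± 0.17 on the log2 scale was called (adjusted p = 0.013, edgeR), but not without the second 0 h (0.42) or second 6 h library (0.34), nor with library size only (0.26). Scaled to the ERCC spike-ins it was at -0.30 and not called. At 6 days HOXA7 was at 0.20 ± 0.17, and at -0.85 with ERCC scaling, a call as lower (adjusted p = 1.4e-05). With that scaling the typical gene of the DMSO libraries itself moved by -0.34 (3 days) and -1.18 (6 days) in Kelly and by -0.81 and -1.10 in NGP, so HOXA7 lay above the typical gene under both. HOXD10 in NGP was at -0.36 ± 0.17 and -0.17 ± 0.16, with 50.1 and 48.4 CPM at 0 h and 38.8 and 38.3 at 6 h in the 3-day libraries. The 3-day change was called as lower by DESeq2 (-0.37, adjusted p = 0.040) and by edgeR with library size only (-0.61). HOXC8 was at -0.39 ± 0.37 and -0.46 ± 0.37 in Kelly and -0.33 ± 0.28 and -0.13 ± 0.28 in NGP, none called. HOXD4 in Kelly went from 2.23 and 2.42 CPM to 3.92 and 5.12 in the 3-day libraries (0.96 ± 0.73) and was at -0.42 ± 0.72 at 6 days, neither called.

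**Figure D3:**
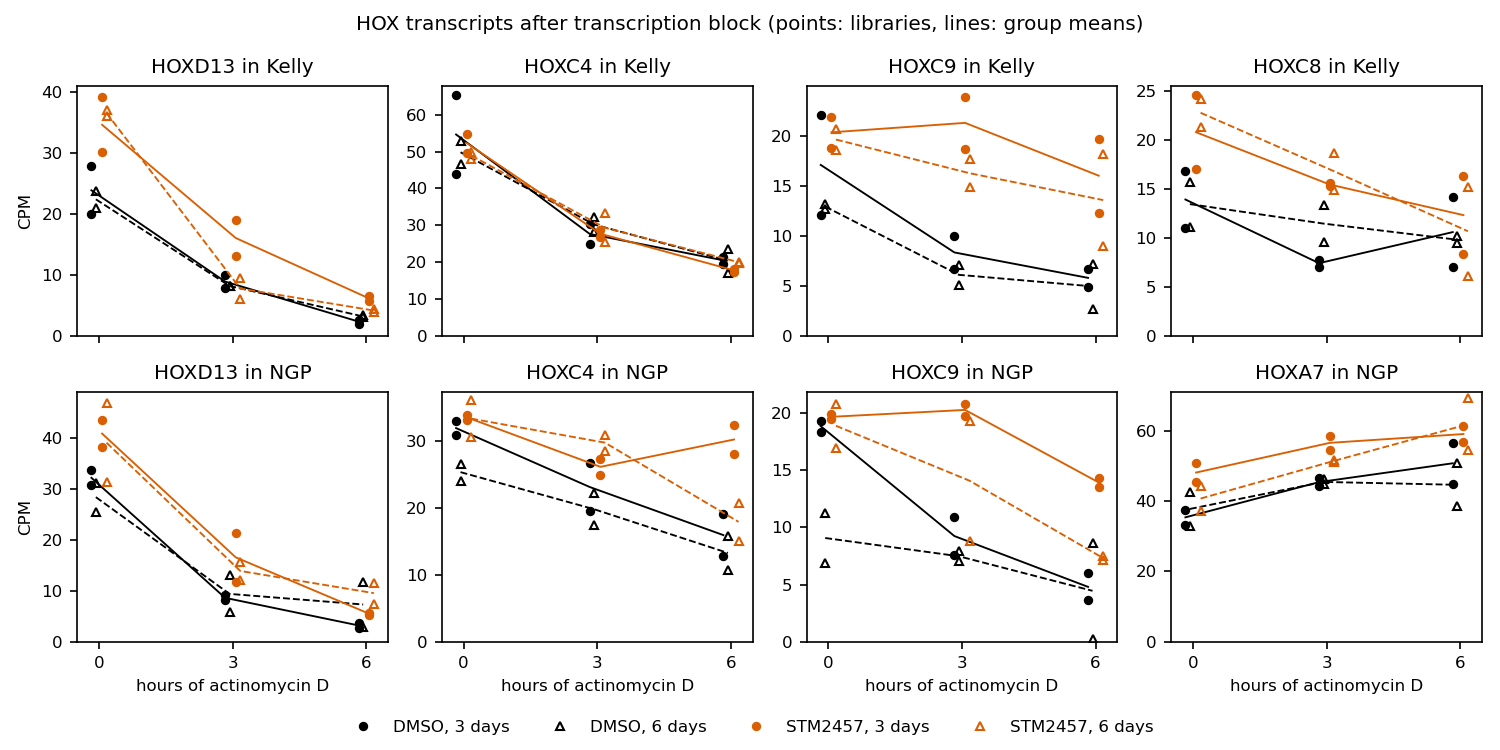
CPM of 4 HOX genes in Kelly (top) and 4 in NGP (bottom) at 0, 3 and 6 h of actinomycin D on linear axes. Points are libraries, lines group means, black DMSO and orange STM2457, filled circles with solid lines 3 days and open triangles with dashed lines 6 days. HOXD13 falls steeply in every course and HOXA7 in NGP does not fall.

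The same fall was measured in cells kept in STM2457. In Kelly it was called for 2 of 25 members at 3 days (26.9% of all genes, 14% as lower) and 4 of 25 at 6 days (26.4%, 14% as lower). In NGP it was called for 1 of 26 at 3 days (32.5%, 15.9% as lower) and 5 of 26 at 6 days (32.1%, 16.4% as lower), the last with 4 lower and HOXA7 higher. The edgeR calls were all in expressed members, 2 and 4 of 12 in Kelly and 1 and 5 of 17 in NGP. Here too the share among all genes expressed by the rule was not counted. DESeq2 called 2 and 4 in Kelly and 3 and 5 in NGP, and limma-voom called 2 and 8 (4 of them higher) and then 4 and 5. In Kelly at 6 days the edgeR estimates of all 12 expressed members were below 0. HOXD13 was called by edgeR each time, with log2 changes of -2.50 ± 0.36 and -3.15 ± 0.37 in Kelly and -2.93 ± 0.35 and -2.06 ± 0.34 in NGP. HOXC4 was at -1.55 ± 0.23 and -1.30 ± 0.22 in Kelly, and at -0.18 ± 0.23 and -0.93 ± 0.24 in NGP, of which the first was not called. In Kelly at 6 days HOXC6 (-1.34 ± 0.44) and HOXC8 (-1.10 ± 0.36) were called as well. HOXC6 was not called without the first (-1.31) or second (-1.35) 0 h or the first 6 h library (-0.82), nor HOXC8 without the first 0 h (-0.995) or the second 6 h library (-0.59). In NGP at 6 days HOXA11 (-4.34 ± 0.93) and HOXC9 (-1.40 ± 0.44) were called, the latter not by DESeq2. Without the first 6 h library HOXC4 in NGP at 6 days was not called either (-0.71). HOXA7 in NGP at 6 days was at 0.57 ± 0.17 (adjusted p = 0.0058, edgeR), was not called without the second 0 h (0.45) or second 6 h library (0.38) nor with library size only (0.40), and turned to -0.057 with ERCC scaling, where the typical gene was at -0.67.

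Whether a transcript decayed differently in STM2457 was tested as the change from 0 to 6 h in STM2457 minus that in DMSO, where a positive value means slower relative loss in STM2457. edgeR called 0 members in each of the 4 comparisons, of 25 in Kelly and 26 in NGP, against 0.221% and 0.424% of all genes in Kelly and 0.703% and 2.54% in NGP. Of the members tested, 12 in Kelly and 17 in NGP were expressed by the rule. At an unadjusted p under 0.05 there were 1, 0, 2 and 3 members, DESeq2 called 0, 0, 0 and 2, and limma-voom 0 in all 4. Among expressed members 8 of 12 and 7 of 12 differences were positive in Kelly and 10 of 17 and 7 of 17 in NGP, with medians of 0.63, 0.14, 0.14 and -0.03. Over all genes tested the median was 0.02 and 0.006 in Kelly and -0.0006 and -0.02 in NGP, and the share of positive differences was not counted. With ERCC scaling 8 and 11 of 12 were positive in Kelly and 12 and 13 of 17 in NGP. The median over all genes tested was then itself at -0.37 and 0.70 in Kelly and 0.14 and 0.41 in NGP.

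m6A is known to be placed mainly near stop codons in the sequence context that includes GGACT, and to mark mRNAs for faster decay. In a window of 200 bases around the stop codon, 22.0% of 18174 canonical transcripts hold GGACT on the transcript strand, and among the members expressed in a line HOXA6, HOXC6, HOXC8 and HOXD10 do, once each. The 3 that are counted well are shown in 27 bases with the motif in capitals, at 4 and 76 bases past the stop codon for HOXC6 and HOXD10 and overlapping it for HOXC8.
HOXC6, chr12:54029955-54029981, plus strand: aagagtgaccaGGACTgtccctgccac
HOXC8, chr12:54011364-54011390, plus strand: gaagaaaacaaGGACTaagcaaaaaag
HOXD10, chr2:176119296-176119322, plus strand: ccagtgctggaGGACTgggaaagcgga
The decay difference of HOXC6 was 1.09 ± 0.63 and 0.28 ± 0.62 in Kelly and -0.26 ± 0.54 and -0.03 ± 0.58 in NGP. That of HOXC8 was -0.36 ± 0.51, -0.64 ± 0.51, 0.57 ± 0.39 and -0.25 ± 0.39, and that of HOXD10 was 0.45 ± 0.78 and -1.02 ± 0.76 in Kelly and 0.11 ± 0.23 and -0.04 ± 0.23 in NGP. HOXA6 in NGP was at -1.17 ± 1.08 and -0.15 ± 1.08. The members with the motif had no sign in common, and none was called.

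HOXC9, which holds neither motif in these windows, had the smallest unadjusted p in Kelly at 3 days. Its libraries after 6 h had 19.7 and 12.3 CPM in STM2457 against 4.90 and 6.68 in DMSO, and the decay difference was 1.22 ± 0.52 (adjusted p = 0.51, edgeR). In Kelly at 6 days they had 18.2 and 8.94 against 2.67 and 7.22 CPM, with a difference of 0.85 ± 0.52 (adjusted p = 0.72). In NGP at 3 days they had 13.6 and 14.3 against 5.97 and 3.61 CPM, with a difference of 1.44 ± 0.61 (adjusted p = 0.42). At 6 h the STM2457 libraries were above the DMSO libraries in these 3. In NGP at 6 days they had 7.17 and 7.46 against 8.67 and 0.226 CPM, and the sign depended on 1 library: -0.39 ± 0.62 with both, 3.91 (adjusted p = 0.00017) without the first DMSO 6 h library, which leaves the one with 3 fragments, and -1.30 without the second.

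HOXD4 came nearest to the threshold, in NGP at 6 days. After 6 h it had 3.10 and 4.07 CPM in STM2457 against 0.353 and 0.377 in DMSO, a decay difference of 2.91 ± 0.88 (adjusted p = 0.057, edgeR). DESeq2 called it (adjusted p = 0.012) and limma-voom did not (0.29). HOXD8 in the same comparison had 14.3 and 17.2 against 8.72 and 5.81 CPM, a difference of 1.16 ± 0.41 (adjusted p = 0.13), and DESeq2 called it as well. At 3 days in NGP the differences were 0.97 ± 0.79 for HOXD4 and 0.16 ± 0.40 for HOXD8. HOXC4 in NGP at 3 days had 28.0 and 32.3 CPM after 6 h in STM2457 against 12.8 and 19.0 in DMSO, a difference of 0.84 ± 0.33 (adjusted p = 0.36), while at 6 days it was 0.03 ± 0.33. HOXD13 was at 0.86 ± 0.51 and -0.33 ± 0.51 in Kelly and 0.43 ± 0.49 and -0.02 ± 0.48 in NGP.

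**Figure D4:**
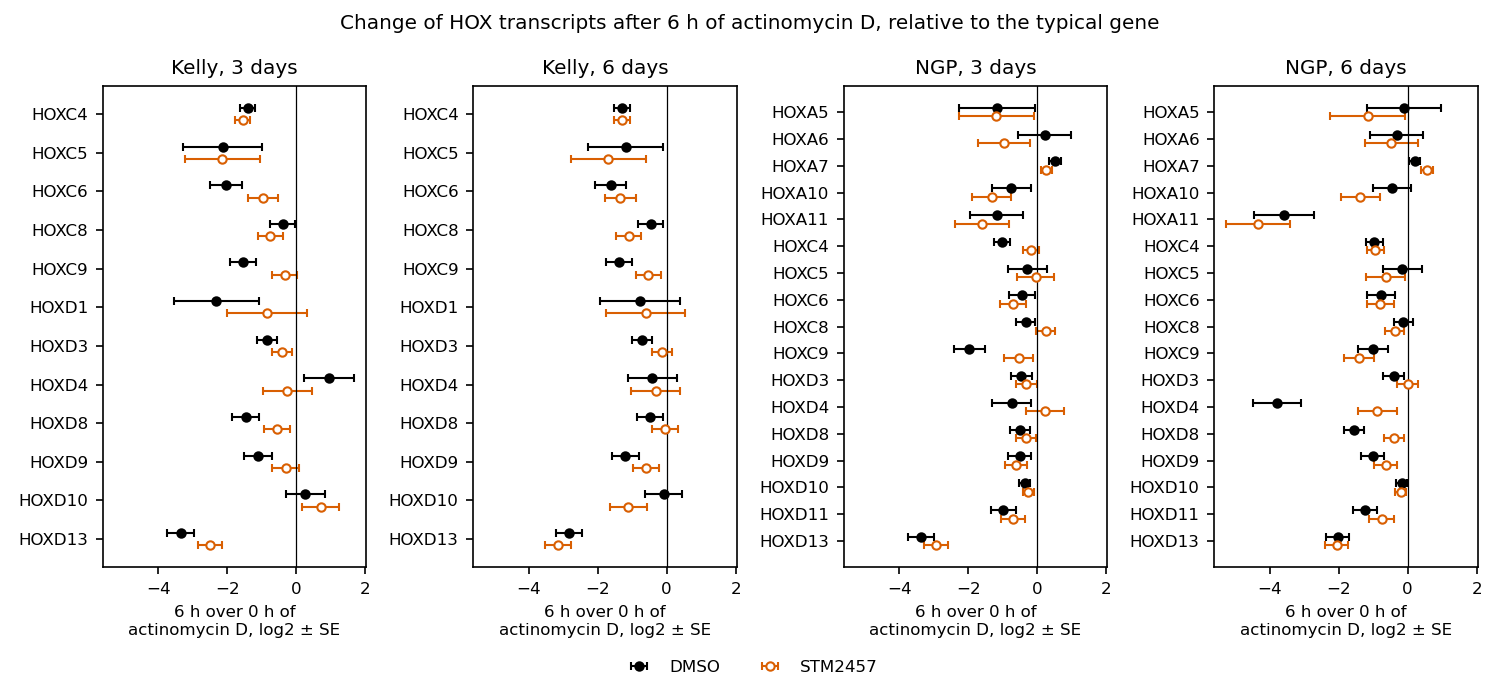
Log2 change of the expressed HOX genes from 0 to 6 h of actinomycin D with its SE, relative to the typical gene, in 4 panels by line and duration. Filled black points are DMSO and open orange points STM2457. HOXD13 lies furthest left in both Kelly panels and in NGP at 3 days, and the pair of points of HOXD4 in NGP at 6 days is the widest apart.

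The partners and regulators of HOX proteins were counted in the same fits. Of 11 cofactor genes of the PBX, MEIS, PKNOX and TGIF families, edgeR called 0 under STM2457 at 3 days in either line, 1 in Kelly at 6 days and 2 in NGP at 6 days, all higher, where 3.97% and 7.99% of all genes were called. At 3 days 3 in Kelly and 0 in NGP had an unadjusted p under 0.05, DESeq2 called 1 and 0 and limma-voom 0 in both. MEIS2 rose by 0.49 ± 0.14 in Kelly (adjusted p = 0.023, edgeR) and 0.32 ± 0.10 in NGP (adjusted p = 0.034), and MEIS1 by 0.38 ± 0.10 in NGP (adjusted p = 0.0082). Between the lines in DMSO 3 of the 11 were higher in NGP at 3 days and 4 at 6 days, and 1 was lower at each, where of all genes 14% and 15.7% were higher and 16% and 15.9% lower. MEIS1 had 53.2 ± 9.97 CPM in Kelly and 166.9 ± 39.6 in NGP (SD, n = 4).

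Of 29 regulators of HOX clusters, among them Polycomb, Trithorax and retinoic acid receptor genes, 26 were tested in each line. edgeR called 0 of them under STM2457 in Kelly at either duration. In NGP it called 0 at 3 days and 2 at 6 days, both lower, where 7.99% of all genes were called. For the 3 counts of 0, an unadjusted p under 0.05 was found for 4, 4 and 3 genes, DESeq2 called 2, 1 and 1 and limma-voom 0, 1 and 0. KDM6B, which removes the Polycomb mark, was at -0.61 ± 0.10 in NGP at 6 days (adjusted p = 5.5e-06, edgeR). Of 11 ParaHox and linked homeobox genes, 0 in Kelly and 1 in NGP reached 1 CPM in each of the 4 DMSO libraries. EVX2, next to HOXD13, had 0.355 ± 0.251 CPM in Kelly and 1.07 ± 1.76 in NGP.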

How the data were processed

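RNA-seq was measured in 48 libraries. Per the labels' protocols, a SMART cDNA kit made the libraries from poly(A)-selected RNA. Raw counts of fragments per gene name were deposited, made by the authors with featureCounts at exon level, per the file headers, on GENCODE release 33 protein-coding genes with 92 ERCC spike-ins. FastQC 0.11.5, Trimmomatic 0.36, HISAT2 2.1.0, Subread 1.5.3 and GRCh38 are named in the submitters' processing notes. Strand and overlap settings are not given in the sources used here. Libraries held between 11139550 and 21942238 fragments in genes.

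Groups came from the sample titles. Tests on the counts used edgeR 4.0.16 (R 4.3.3): TMM scaling without the ERCC rows, filterByExpr by group (minimum count 10, total 15), quasi-likelihood test on the dispersion trend, and Benjamini-Hochberg adjustment over all genes tested at 0.05. The 24 libraries of a line were fitted together (16759 genes in Kelly, 14661 in NGP), and all 48 for differences between lines (17343). SEs are the absolute log2 change over the square root of F. Level folds use pooled fragments with a floor of 3, which covers counting error only. The fit was tested on simulated data. Alternatives were RLE factors, library size only, ERCC scaling, no filter, DESeq2 1.42.0, limma-voom (limma 3.58.1), fits of 1 duration, the replicate number as a block, and leaving out each library. Sequences are from RefSeq and GENCODE tables on GRCh38.

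All 39 members are accounted for. Values per library are given for the members expressed in Kelly, and in NGP, with 17, for the 3 highest per kilobase in each cluster. Genes outside that rule (among them HOXD4, HOXD8 and HOXD9 in NGP) were given values after these were seen. Of the lists for cofactors, regulators, ParaHox genes and cell type markers, called genes are named, and the results of some genes are not reported here. Members and lists were chosen with earlier results of these data known, so counts of members are descriptions.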

Additional observations from a re-analysis of the deposited data

How the results depend on the processing

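Expressed members stayed within 1.5 times at 0.5 CPM (12 in Kelly, 19 in NGP), at 2 CPM (10 and 16) and with the rule read in STM2457 libraries (12 and 20). RLE factors left every count of called members within 1.5 times, and so did library size only and fits of 1 duration, apart from the fall in STM2457 in NGP at 3 days. There library size only called 4, the 1-duration fit 2, DESeq2 3 and limma-voom 4 in place of 1. The alternatives for the fall in STM2457 were chosen after seeing the data. ERCC scaling gave 2 called members for STM2457 in Kelly at 3 days, where it called 3727 of all 16759 genes. For the fall in DMSO it gave 11 at 6 days in Kelly (10389 of 16759 genes). In NGP it gave 14 at 3 days (8048 of 14661 genes) and 17 at 6 days (9876). For the decay difference at 6 days it gave 2 in Kelly (5033 genes) and 4 in NGP (2592). For the fall in STM2457 it gave 9 and 8 in Kelly (8387 and 6272 genes) and 12 and 12 in NGP (7037 and 6919). The line difference at 3 days had 13 called with it, all higher, in place of 9 higher and 1 lower. Of 17343 genes 4745 were then called as higher and 1438 as lower. ERCC scaling moved the typical gene by 0.38 for STM2457 in Kelly at 3 days, by -1.18, -0.81 and -1.10 for these falls in DMSO, and by 0.70 and 0.41 for these differences. For the falls in STM2457 it moved the typical gene by -0.72, -0.45, -0.64 and -0.67. It turned HOXA7 in NGP to -0.30 and -0.85 in DMSO at 3 and 6 days and to -0.057 in STM2457 at 6 days. DESeq2 called 2 members for STM2457 and 2 for the decay difference in NGP at 6 days. limma-voom called 1 for STM2457 at 6 days in Kelly and 1 in NGP and 8 for the fall in STM2457 in Kelly at 6 days, and the fit without a filter called 1 in NGP at 6 days. The causes were not tested, apart from the shift of all genes given with ERCC scaling.

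Leaving out each library gave 0 to 1 called for STM2457 in NGP at 6 days (1 without the second DMSO 0 h library) and 0 to 1 for the decay difference there (1, HOXC9, without the first DMSO 6 h library, with HOXC9 at -1.30 to 3.91 over the refits). The fall in DMSO was called for 3 to 6 members in Kelly at 6 days (3 without the first 0 h or the second 6 h library), and for 3 to 7 in NGP at 3 days (3 without the second 0 h library). The fall in STM2457 was called for 2 to 3 members in Kelly at 3 days, 2 to 4 at 6 days (2 without the first 0 h library), and in NGP for 1 to 2 (2 without the first 0 h or first 6 h library) and 4 to 6. The line difference was called for 6 to 10 members at 3 days (6 without the first Kelly library) and 7 to 11 at 6 days (7 without the first Kelly library). A lone library is assumed to vary like the other groups.

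Equal replicate numbers did not mark shared deviations: between groups of a line the correlation of replicate differences was -0.03 to 0.08, and 0 of 66 pairs exceeded 0.1 in either line. The replicate block gave 8 called members for the fall in DMSO in NGP at 6 days in place of 7, with HOXC9 added at -1.13, and the same count as the main fit in all other comparisons. Groups of 2 make every SD rough, and members under about 5 CPM have SEs near 1.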
